A study of Mus musculus with 5 samples.

Results

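The genes described here are the aryl hydrocarbon receptor gene Ahr, its partner gene Arnt, the feedback genes Ahrr and Tiparp, and 4 enzyme genes of the same response, Cyp1a1, Cyp1b1, Nqo1 and Aldh3a1. They were taken by symbol, through every probe set whose platform annotation names 1 of these 8 genes and no other. This gave 17 of the 45037 probe sets on the array, for 8 of the 18193 genes named by a single-gene probe set. The cells were fat cells grown from C3H10T1/2, an embryonic mouse line of mesenchymal character that can be driven into several lineages. Differentiated cells had their medium renewed the day before and were then exposed for 6 h to butein, sulfuretin, resveratrol or the solvent DMSO. Each group is 1 Affymetrix array: DMSO, butein, sulfuretin, a second DMSO array called DMSO1, which the labels name as the control of resveratrol, and resveratrol. All the cells are of 1 line, no genetic change is named in the labels, and the labels do not give the doses.

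AHR is a transcription factor that waits in the cytosol in a complex with HSP90 and is activated by small planar molecules such as dioxin, aromatic hydrocarbons and some plant flavonoids. In the nucleus it pairs with ARNT, binds the xenobiotic response element and drives genes of the cytochrome P450 family 1, which are its classical readout. Ahrr and Tiparp encode repressors that feed back on the receptor. Nqo1 is also a classical target of NRF2, the regulator of antioxidant genes, so it can respond to either factor. In fat cell precursors AHR is known as a brake on adipogenesis, and resveratrol is known as an antagonist of the receptor in cell assays.

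Reference promoters were searched for the cores of the elements that the 2 factors bind. The RefSeq table of build GRCm38.p6 held a window for 6 of the 8 genes, from 250 bases before the start site to 50 after it. The letters searched, on both strands, were GCGTG, the core of the xenobiotic response element, and TGACNNNGC, the core of the antioxidant response element bound by NRF2; no match of one overlapped a match of the other in these windows. GCGTG was found in 5 of the 6 windows (Arnt, Ahrr, Tiparp, Cyp1a1 and Cyp1b1) and in 32.4% of all 32851 windows of that length. TGACNNNGC was found in 1 of the 6, Arnt, and in 12.4% of all windows. Ahrr held GCGTG at 3 places, the most of these genes, and Nqo1 held neither motif in this window. A match is a string of letters and not a measured binding site. The 250 bases before the start are printed for Tiparp and Nqo1, whose transcripts were higher with butein, and for Cyp1a1, the classical target whose probe set stayed near background. Capitals mark GCGTG on either strand (CACGC where it lies on the other strand). The windows are chr3:65528197-65528446 on the plus strand for Tiparp, chr8:107403206-107403455 on the minus strand for Nqo1 and chr9:57697363-57697612 on the plus strand for Cyp1a1, and each sequence is given along its gene.
Tiparp: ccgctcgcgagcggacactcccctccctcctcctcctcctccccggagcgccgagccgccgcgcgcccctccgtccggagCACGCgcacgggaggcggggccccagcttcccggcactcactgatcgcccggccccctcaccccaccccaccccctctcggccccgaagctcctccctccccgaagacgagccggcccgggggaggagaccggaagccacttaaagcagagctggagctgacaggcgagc
Nqo1: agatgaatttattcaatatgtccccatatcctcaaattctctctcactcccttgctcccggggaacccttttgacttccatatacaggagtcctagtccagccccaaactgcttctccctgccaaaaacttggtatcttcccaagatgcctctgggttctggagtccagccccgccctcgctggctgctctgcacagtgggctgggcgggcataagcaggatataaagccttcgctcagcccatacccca
Cyp1a1: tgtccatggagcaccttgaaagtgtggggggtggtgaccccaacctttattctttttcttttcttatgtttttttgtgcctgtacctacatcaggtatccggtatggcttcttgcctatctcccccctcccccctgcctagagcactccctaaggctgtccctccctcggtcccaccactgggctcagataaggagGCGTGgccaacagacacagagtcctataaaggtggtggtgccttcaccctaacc
The match in Tiparp lies 170 bases before the start site and the one in Cyp1a1 lies 54 bases before it.

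**Figure D1:**
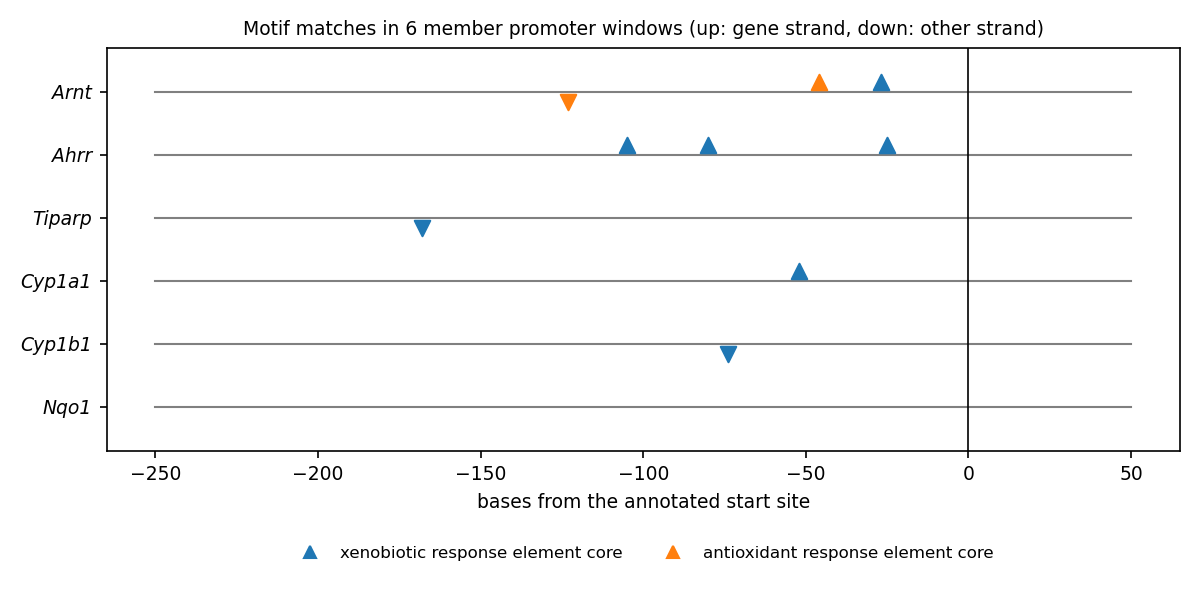
Positions of the motif matches in the 6 promoter windows, in bases from the annotated start site on the horizontal axis; each line is 1 gene and each triangle 1 match, pointing up on the gene's own strand and down on the other. Arnt holds 2 matches of the antioxidant element core and 1 of the xenobiotic element core, and Nqo1 holds none of either.

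The values are intensities on a linear scale, and differences are given as log2 of the treated over the solvent array with no pseudocount. A gene was represented by its brightest probe set, and it was counted when that probe set reached an intensity of 8.39 on at least 1 array. That floor is the median level of all probe sets. It kept 12439 genes, 6 of the 8 members among them, and Ahrr and Cyp1a1 were under it on every array. Since any of the 5 arrays could serve, genes such as Fgf21 entered the butein and sulfuretin shares through DMSO1 and resveratrol alone. The floor was reached by 44.1% of probe sets in DMSO and 56.2% in DMSO1. With a floor at percentile 75, 226 of 7889 genes were at least 2-fold higher with butein, against 252 of 12439 here. Genes at a log2 difference of at least 1, that is 2-fold, are called past the criterion. With 1 array per group no difference has a replicate error of its own group, so the differences are given without a test and the overlap of groups cannot be judged. A fit that borrows the spread between the solvent arrays is given at the end. The DMSO, butein and sulfuretin arrays share 1 scale and DMSO1 and resveratrol another, with median intensities of 6.85 on the first 3 and of 11.1 and 11.5 on the last 2, so each compound was read against the control of its own set.

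The cells carried the markers of fat cells. All 7 adipocyte markers with a probe set were above the floor on all 5 arrays, among them Fabp4 (7338 to 9340), Adipoq (6122 to 7202), Pparg (355 to 602) and Cebpa (114 to 378). The summed level of the 7 was lowest with butein, at 19623 against 22341 in DMSO. The muscle regulators Myod1 and Myog and the blood cell and macrophage markers Ptprc and Adgre1 stayed under the floor on all 5 arrays. Of the other macrophage markers, Csf1r read 15.2 to 21.1 and so above the floor on all 5, and Cd68 reached it in DMSO1 and resveratrol alone (9.5). The muscle genes Acta1 (45.3 to 179) and Ckm (10.1 to 18.4) were above it on all 5. So were the undifferentiated mesenchymal markers Pdgfra (353 to 387) and Thy1 (101 to 147) and the osteoblast marker Sp7 (13.4 to 20.2). The mesenchymal marker Dlk1 and the osteoblast marker Ibsp were under it throughout, and Alpl reached it in DMSO1 and resveratrol alone. The 3 chondrocyte markers summed to 144 in DMSO and 102 with butein, and the 4 muscle markers to 91.6 and 65.7. The part of these shifts in the results below was not tested, and in such bulk samples fewer cells of a type cannot be told apart from less RNA per cell.

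With butein, 3 of the 6 counted members were past 2-fold higher and none was past it lower, namely Ahr, Tiparp and Nqo1. Over all counted genes 2.03% passed the criterion upward and 0.297% downward. The median log2 difference of the 6 members was 1.06, against 0 over all counted genes. With sulfuretin 1 of the 6, Nqo1, was past the criterion higher, where 0.193% of all counted genes were higher and 0.0482% lower, and the members' median was 0.30. With resveratrol none of the 6 passed, where 0.0804% of all counted genes were higher and 0.0643% lower, and the members' median was 0.08. The other members, Arnt, Cyp1b1 and Aldh3a1, stayed within 2-fold with all 3 compounds.

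**Figure D2:**
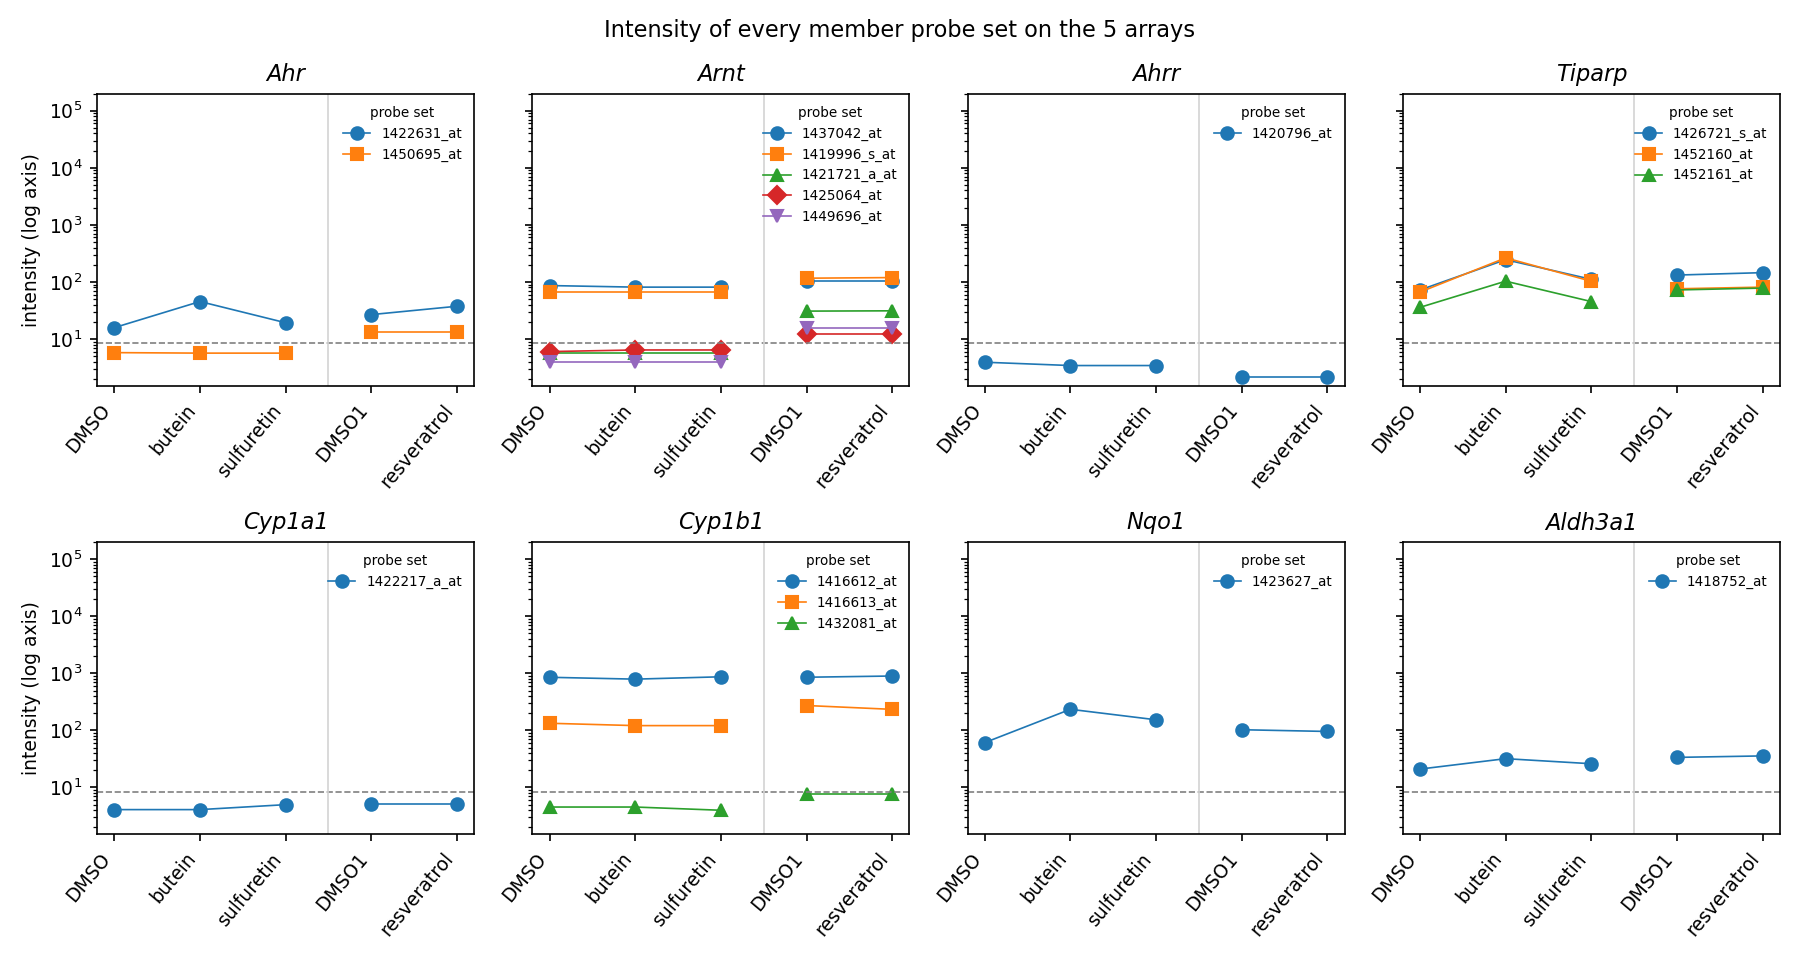
Intensity (log axis) of each of the 17 probe sets on the 5 arrays, 1 panel per gene and 1 line per probe set; the dashed line is the floor of 8.39 and the vertical line separates the arrays of different scale. The 3 Tiparp probe sets and the Nqo1 probe set peak on the butein array, while Cyp1a1 and Ahrr lie under the floor throughout.

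The receptor gene itself was higher with butein. Ahr (NCBI gene 11622) read 15.8 in DMSO, 45.3 with butein and 19.2 with sulfuretin, and 26.7 in DMSO1 and 37.4 with resveratrol on its brighter probe set. The butein array is the highest of the first 3 and sulfuretin lies close to DMSO. The differences were 2.87-fold with butein, 1.22-fold with sulfuretin and 1.40-fold with resveratrol, all upward. Of the 12439 counted genes, 113 (0.908%) were at least as much higher with butein. For resveratrol this count was 69 (0.555%), so on this probe set the modest Ahr difference lay far out in a narrow distribution. By brightest probe sets it was the widest of any counted member with that compound.

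A second Ahr probe set, designed from the same deposited sequence, did not show the butein difference. It read 5.77 in DMSO, 5.65 with butein, 5.65 with sulfuretin, 13.4 in DMSO1 and 13.4 with resveratrol. It was thus under the floor on the first 3 arrays, and its butein value was shared exactly by 1119 probe sets of that array. With the mean of both probe sets in place of the brighter one, Ahr was 1.68-fold higher with butein and no longer past the criterion. With resveratrol the second probe set was above the floor and exactly equal to DMSO1, and the mean of both gave 1.18-fold higher.

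Arnt, which encodes the common partner of AHR and of the hypoxia factors, stayed level. Its brightest probe set (NCBI gene 11863) read 86.3 in DMSO, 81.0 with butein, 81.0 with sulfuretin and 102.8 in both DMSO1 and resveratrol. The treated arrays therefore lay 1.07-fold below DMSO for butein and sulfuretin and exactly at DMSO1 for resveratrol. The next brightest read 65.6 on all of DMSO, butein and sulfuretin, 116 in DMSO1 and 119 with resveratrol. The other 3 Arnt probe sets were under the floor in the first set of arrays, between 3.99 and 6.42, and above it in the second, between 12.4 and 31.1. Within a set, none of the 5 Arnt probe sets differed by more than 1.07-fold from its control with any compound.

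The feedback genes differed in how well they were measured. Ahrr (NCBI gene 11624), the repressor that competes with AHR for ARNT, has 1 probe set, which read 3.91 in DMSO, 3.42 with butein and sulfuretin and 2.12 in DMSO1 and resveratrol. All 5 values are under the floor, so no fold is read from them.

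Tiparp (NCBI gene 99929), the gene of a mono-ADP-ribosyltransferase that represses AHR, was higher with butein on all 3 of its probe sets. The brightest read 72.2 in DMSO, 245 with butein, 111 with sulfuretin, 132 in DMSO1 and 145 with resveratrol. The second read 66.1, 264, 103, 75.8 and 81.0 on the same arrays in that order, and the third 35.8, 103, 45.2, 72.3 and 78.0. Butein was the highest of the first 3 arrays and sulfuretin lay between it and DMSO on each probe set. The butein differences were 3.40-fold, 3.99-fold and 2.88-fold. Those with sulfuretin were 1.54-fold, 1.55-fold and 1.26-fold, and those with resveratrol 1.10-fold, 1.07-fold and 1.08-fold, all upward. The 3 probe sets stem from the same deposited sequence, so they are not independent readings of the gene. On the brightest, 84 counted genes (0.675%) were at least as much higher with butein and 140 (1.13%) with sulfuretin.

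Neither cytochrome P450 gene passed the criterion with any compound. Cyp1a1 (NCBI gene 13076), the enzyme whose induction defines AHR activation in many tissues, read 4.09 in DMSO, 4.09 with butein, 5.0 with sulfuretin, and 5.21 in both DMSO1 and resveratrol. These levels are under the floor on all 5 arrays, and the sulfuretin value is one that 1316 probe sets share on that array, so no increase was detectable on this probe set.

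Cyp1b1 (NCBI gene 13078), a P450 of mesenchymal cells that metabolises steroids and aromatic hydrocarbons, had a clear signal that hardly differed between arrays. Its brightest probe set read 852 in DMSO, 791 with butein, 869 with sulfuretin, 854 in DMSO1 and 897 with resveratrol. That is 1.08-fold lower with butein, 1.02-fold higher with sulfuretin and 1.05-fold higher with resveratrol. A second probe set from the same deposited sequence read 133, 121, 121, 273 and 234 on the 5 arrays in that order. It was 1.10-fold lower with butein and with sulfuretin and 1.17-fold lower with resveratrol, so the 2 probe sets went opposite ways for sulfuretin and resveratrol. The third was under the floor throughout, between 3.99 and 7.65.

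Among the brightest probe sets of the members, Nqo1 had the widest difference with butein and with sulfuretin. Nqo1 (NCBI gene 18104) encodes NAD(P)H quinone dehydrogenase 1, which reduces quinones to hydroquinones. It read 61.1 in DMSO, 234 with butein, 153 with sulfuretin, 102.8 in DMSO1 and 95.8 with resveratrol. Both catechol compounds lay above their control and resveratrol slightly below its own. The differences were 3.84-fold higher with butein, 2.51-fold higher with sulfuretin and 1.07-fold lower with resveratrol. Counting Nqo1 itself, 64 genes (0.515%) were at least as much higher with butein, but only 14 (0.113%) with sulfuretin. Nqo1 has a single probe set, so no second reading was possible.

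Aldh3a1 (NCBI gene 11670), an aldehyde dehydrogenase of the classical AHR gene battery, read 21.0 in DMSO, 32.0 with butein, 26.1 with sulfuretin, 33.7 in DMSO1 and 35.7 with resveratrol. It was 1.52-fold, 1.24-fold and 1.06-fold higher with the 3 compounds in that order. Like Ahr and Tiparp it was highest with butein among the first 3 arrays, though under the criterion.

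**Figure D3:**
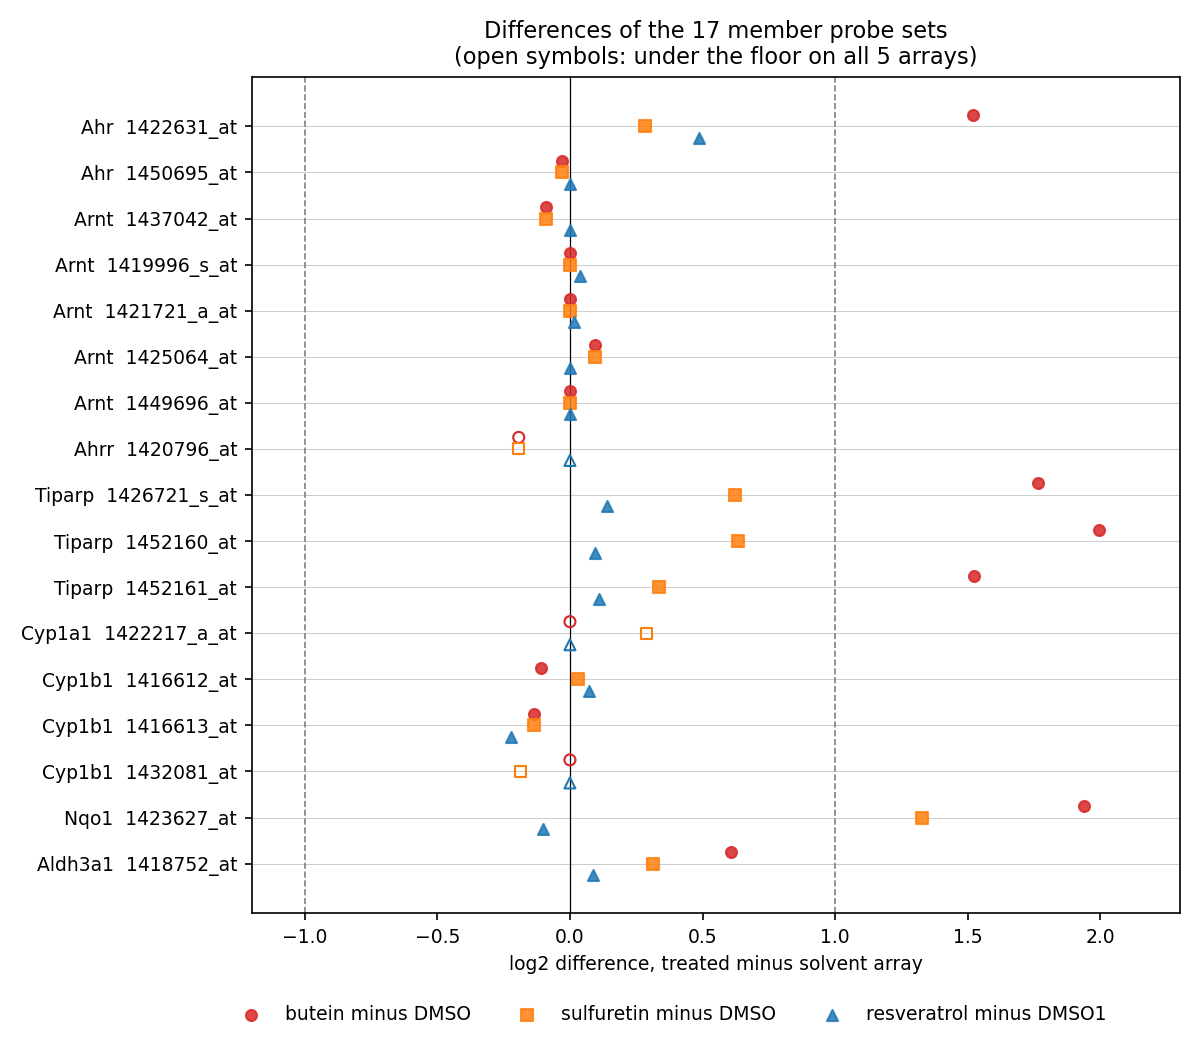
Log2 difference of each of the 17 probe sets (rows) with butein and sulfuretin against DMSO and resveratrol against DMSO1; dashed lines mark 2-fold and open symbols mark probe sets under the floor on all 5 arrays. Of the 14 probe sets that reached the floor, 5 are past 2-fold with butein (1 of Ahr, 3 of Tiparp and Nqo1), 1 with sulfuretin and 0 with resveratrol. The Tiparp probe sets stem from the same deposited sequence. Over all counted genes, by brightest probe set, 2.03% were at least 2-fold higher with butein, 0.193% with sulfuretin and 0.0804% with resveratrol. The 14 include Ahr and Arnt probe sets that were under the floor on DMSO, butein and sulfuretin.

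Across the 14 probe sets of the members that reached the floor, 7 were higher with butein, 4 lower and 3 exactly equal to DMSO. For sulfuretin these numbers were 8, 3 and 3, and for resveratrol 8, 2 and 4. The second Ahr probe set and the Arnt probe sets under the floor in the first set reached it on 2 arrays only, DMSO1 and resveratrol. Their directions with butein and sulfuretin, though included in these numbers, are not read. Of the 12439 counted genes, by brightest probe set, 4107 were higher and 4610 lower with butein. For sulfuretin 4331 were higher and 4060 lower, and for resveratrol 4090 and 4226. Exact equality was common on these arrays: of all counted genes, 29.9% were equal to the last digit compared (1e-06 on the log2 scale) with butein, 32.5% with sulfuretin and 33.1% with resveratrol.

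**Figure D4:**
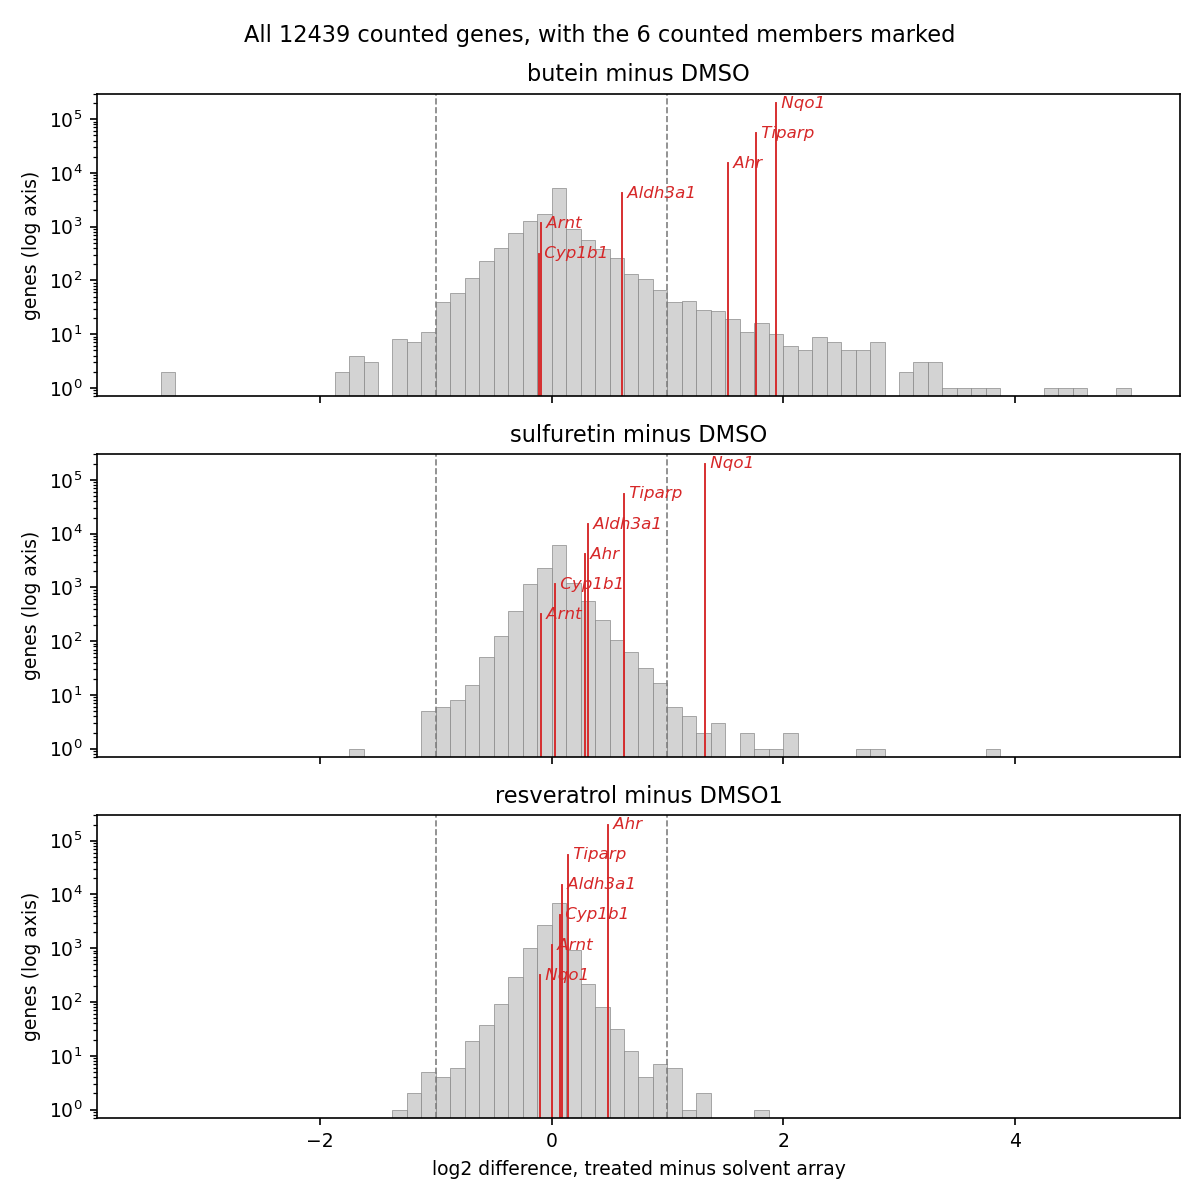
Number of counted genes (log axis) by log2 difference for each compound, with the 6 counted members marked by red lines and 2-fold by dashed lines; the heights of the red lines carry no value. Nqo1, Tiparp and Ahr lie in the upper tail with butein, Nqo1 alone is past 2-fold with sulfuretin, and Ahr is the outermost member with resveratrol.

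Butein and sulfuretin are related plant polyphenols, a chalcone and an aurone, both with a catechol ring, and the aurone has its bridge closed into a ring. Resveratrol is a stilbene without a catechol. Read directly against each other on 1 scale, the sulfuretin array was lower than the butein array for Ahr (2.35-fold), Tiparp (2.21-fold), Nqo1 (1.53-fold) and Aldh3a1 (1.23-fold), equal for Arnt and 1.10-fold higher for Cyp1b1. Thus 2 of the 6 counted members were past 2-fold lower, where 1.04% of all counted genes were lower and 0.0965% higher. By brightest probe sets, Nqo1 kept closer to its butein level with sulfuretin than Ahr and Tiparp did. With Ahr taken as the mean of its probe sets the Ahr gap was 1.53-fold, as wide as that of Nqo1. The order then held against Tiparp alone. The labels do not say whether the doses were matched, and limma with both solvent arrays as replicates, after joint quantile normalization, gave each counted member an adjusted p of 1 for this comparison.

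Other genes of the pathway were read from lists of relatives. The members and all these lists were chosen with earlier results of these data known, so their counts and medians are description only. HSP90, which holds the receptor in the cytosol, was represented by Hsp90aa1. Hsp90aa1 read 1267 in DMSO, 2780 with butein and 1430 with sulfuretin, a 2.19-fold and a 1.13-fold difference, and 2217 in DMSO1 and 2302 with resveratrol.

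Of 12 other reported AHR targets, 4 were counted and 5 were under the floor on every array, the P450 gene Cyp1a2 among them. With butein 1 of the 4 was past 2-fold higher and the median was 0.81, which includes Fgf21, a gene under the floor on both arrays of that comparison. Slc7a5, which encodes a transporter of large neutral amino acids, was the one past the criterion, at 50.4 in DMSO and 154 with butein (3.05-fold). It read 62.5 with sulfuretin, 99.8 in DMSO1 and 142 with resveratrol (1.43-fold higher). Nfe2l2, the gene of NRF2, was 1.89-fold, 1.14-fold and 1.16-fold higher with butein, sulfuretin and resveratrol. The growth factor gene Ereg was 1.63-fold, 1.22-fold and 1.28-fold higher, from a DMSO level of 8.03 under the floor. Fgf21 read 5.31 in DMSO, 6.37 with butein and 5.31 with sulfuretin, all under the floor, and 8.56 in both DMSO1 and resveratrol, so no fold is read for butein or sulfuretin. The list medians were 0.24 for sulfuretin and 0.29 for resveratrol, and no gene passed 2-fold with either.

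Relatives of the receptor and its partner among the bHLH-PAS transcription factors went both ways with butein, with 4 higher, 4 lower and 2 equal. None of the 10 counted of 13 passed 2-fold with any compound and the median was 0 for each. Hif1a, the oxygen-regulated factor, read 488 on each of DMSO, butein and sulfuretin and 610 on DMSO1 and resveratrol. Epas1, its close relative, was the farthest out, at 27.4 in DMSO, 14.3 with butein (1.91-fold lower) and 19.8 with sulfuretin (1.38-fold lower). The clock gene Clock and the hypoxia factor gene Hif3a stayed within 1.14-fold of their controls.

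Of the PARP family, to which Tiparp belongs, none of 12 counted relatives passed 2-fold with any compound and the medians were 0. The 12 include Parp16, which was under the floor on DMSO, butein and sulfuretin (4.71 on each). The widest with butein was Parp1, which encodes the main DNA damage-activated polymerase, at 173 in DMSO and 125 with butein (1.38-fold lower). Parp2, Parp3 and the antiviral gene Zc3hav1 were 1.03-fold higher, 1.02-fold lower and 1.10-fold higher with butein.

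Among enzymes related to Nqo1 and Aldh3a1, 1 of 8 counted genes was past 2-fold, higher with butein and with sulfuretin. It was Cbr3, the gene of a carbonyl reductase, at 392 in DMSO, 1039 with butein (2.65-fold) and 989 with sulfuretin (2.53-fold). With resveratrol Cbr3 was 1.16-fold higher, at 654 against 564. The epoxide hydrolase gene Ephx1 was 1.29-fold higher with butein and 1.46-fold with sulfuretin. Nqo2, the paralogue of Nqo1, was 1.18-fold and 1.09-fold lower with butein and sulfuretin, and Aldh3a2, a relative of Aldh3a1, was equal to its control with all 3 compounds. Aldh2 and Akr1b8 were within 1.05-fold of their controls and Cbr1 was 1.26-fold lower with butein.

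The 8 NRF2 targets set beside Nqo1 were chosen with their response in these arrays already known, so they only give a scale. With butein 7 of the 8 were past 2-fold higher with a median of 3.51, with sulfuretin 6 with a median of 1.92, and with resveratrol none with a median of 0.29. The Nqo1 differences, 1.94, 1.33 and -0.10 on the log2 scale, were below those medians. Hmox1 was the highest of the 8 with sulfuretin at 3.78, and Gsr, the glutathione reductase gene, was the lowest with butein at 0.97. For sulfuretin Gsr was lower than Nqo1. Slc7a11, the cystine transporter gene, read 6.24 in DMSO, 7.83 with sulfuretin and 5.96 in both DMSO1 and resveratrol, all under the floor. Its differences with sulfuretin and resveratrol are not read, though the medians of those compounds include them.

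**Figure D5:**
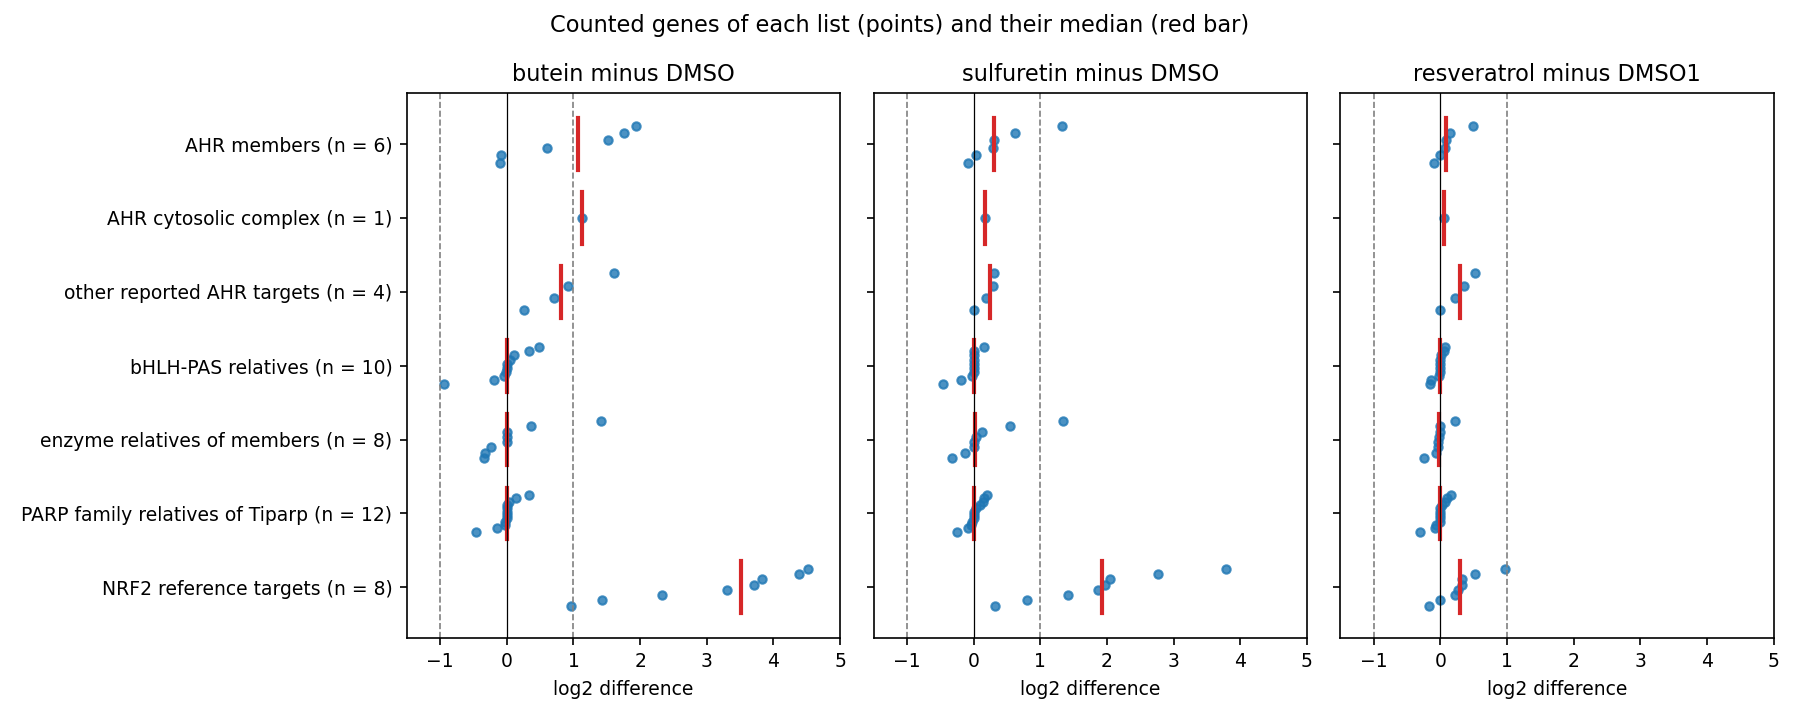
Log2 differences of the counted genes of each list (points) with the list median (red bar) for the 3 compounds; dashed lines mark 2-fold. The members and the other reported AHR targets lie upward with butein at medians of 1.06 and 0.81, the bHLH-PAS and PARP relatives are centred on 0, and the NRF2 reference targets lie farthest out. The median of 0.81 includes Fgf21, under the floor in DMSO and with butein. All the lists were chosen with earlier results of these data known.

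The genes whose 3 differences lay nearest to those of the members past 2-fold were found by Euclidean distance over the 3 log2 differences among all counted genes. Nearest to Ahr were Slc7a5 (distance 0.10), the noncoding RNA gene Dleu2 (0.18) and the ETS factor gene Etv5 (0.23). Etv5 read 6.80 in DMSO and 7.66 with sulfuretin, both under the floor, so its sulfuretin difference is not read. Ahr was placed by its brighter probe set. By the mean of both its log2 differences were 0.75 with butein, 0.13 with sulfuretin and 0.24 with resveratrol, and no nearest genes were sought there. Nearest to Tiparp were Oser1 (0.03), the AP-1 gene Fosl2 (0.09) and the microRNA host gene Mir22hg (0.10). Oser1 read 172 in DMSO, 587 with butein and 260 with sulfuretin, 3.41-fold and 1.51-fold higher. Nearest to Nqo1, at wider distances, were Ly96 (0.31), the bicarbonate transporter gene Slc4a4 (0.33) and the autophagy receptor gene Sqstm1 (0.34). Sqstm1 read 837 in DMSO, 3128 with butein and 1948 with sulfuretin, 3.74-fold and 2.33-fold higher. A likeness over 3 differences from 5 arrays is a description of these arrays.

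The calls lean on the control chosen. Against the other solvent array, on another scale on which the median of all counted genes moved to -0.54 with butein and -0.52 with sulfuretin, Nqo1 was still 2.28-fold higher with butein. Ahr (1.70-fold) and Tiparp (1.86-fold) were then under the criterion with butein, as Nqo1 was with sulfuretin (1.49-fold), and the sulfuretin differences of Ahr (-0.47), Tiparp (-0.25) and Aldh3a1 (-0.37) and the butein difference of Aldh3a1 (-0.07) turned downward. With resveratrol, Ahr (2.37-fold) and Tiparp (2.01-fold) were then past the criterion, where the median of all counted genes moved to 0.53. After joint quantile normalization of the 5 arrays, Ahr, Tiparp and Nqo1 were past 2-fold with butein against either solvent array, and Nqo1 with sulfuretin. When limma took both solvent arrays as replicates on those normalized values, with 1 residual degree of freedom, the smallest adjusted p of any member was 0.857, for Nqo1 with butein (log2 difference 1.77, unadjusted p 0.00405). Unadjusted limma p-values were 0.00783 for Ahr and 0.00903 for Tiparp with butein and 0.0161 for Nqo1 with sulfuretin.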

How the data were processed

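Total RNA of 5 cultures was measured on Affymetrix arrays, from 500 ng each per the labels' protocols. The deposited values are intensities that the authors made with RMA, per the submitters' processing notes; its version and background step are not stated there, and the linear scale follows from their range. No pseudocount was added before log2. Of the probe sets, 34945 name 1 gene; a RefSeq table of GRCm38.p6 held the gene IDs of 34741, whose symbols were brought up to date. The members and lists were chosen with earlier results of these data known. Named were all members and every list gene past 2-fold with up to 4 of the brightest others. Also named were 3 nearest genes for each member past 2-fold, leaving out clone and predicted names. To these were added 4 adipocyte markers and some markers of other cell types. Comparing sulfuretin with butein was added after the data had been seen. The differences carry no test, since each group is 1 array, whose number limits the precision; a limma fit with both solvent arrays as replicates was an alternative. Alternatives are given in the closing section. Scripts were tested on simulated data. The work used limma 3.58.1 in R 4.3.3, and pandas 2.3.3, numpy 2.4.6 and matplotlib 3.10.9 in Python 3.11.15.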

Additional observations from a re-analysis of the deposited data

How the results depend on the processing

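No paired analysis was possible because each group is 1 array, and for the same reason no replicate could be left out. Without the floor, with the floor at percentile 75, without suffixed probe sets, with joint quantile normalization or after centring, the counts of members past 2-fold did not move. Centring could not move them, since the median over all counted genes was already 0 in each comparison. Dropping the floor could add only Ahrr and Cyp1a1. With a criterion of 1.5-fold, 4 members passed with butein, 2 with sulfuretin, 0 with resveratrol and 3 for sulfuretin against butein. With 3-fold these were 2, 0, 0 and 0. Against the other DMSO array they were 1, 0 and 2 for butein, sulfuretin and resveratrol, and against the mean of both 3, 0 and 0. For sulfuretin against butein 1 member, Tiparp, passed with the mean of all probe sets or with a pseudocount of 8. limma after joint quantile normalization called 0 members and 0 genes in all 4 comparisons. At an unadjusted p under 0.05 it had 292 genes higher and 60 lower with butein, 29 and 9 with sulfuretin, 18 and 12 with resveratrol, and 9 and 103 for sulfuretin against butein.

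Over all counted genes, 289 were past 2-fold with butein, 30 with sulfuretin, 18 with resveratrol and 141 for sulfuretin against butein. These became 930, 216, 87 and 474 at 1.5-fold and 115, 10, 1 and 54 at 3-fold. The mean of all probe sets gave 189 for butein, and the pseudocount 19 for sulfuretin and 7 for resveratrol. Against the other DMSO array the counts were 2630 (182 higher and 2448 lower, against 252 and 37 as reported), 2233 (80 and 2153, against 24 and 6) and 2411 (2337 and 74, against 10 and 8). Against the mean of both DMSO arrays they were 452 (160 and 292), 161 (11 and 150) and 170 (162 and 8). With the other DMSO array after joint quantile normalization they were 1162 (777 and 385), 806 (517 and 289) and 829 (300 and 529). The cause of these moves beyond the change of scale was not tested.

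Of 252 member differences recomputed under alternatives, 17 moved by more than 0.46 on the log2 scale. Part of the 252 could not move, so the share that moved is no measure of stability. Centring subtracted a median of 0, and Ahrr, Nqo1 and Aldh3a1 have 1 probe set each, which left no other to choose. The 252 also include Ahrr and Cyp1a1, which were under the floor on every array. The bound of 0.46 comes from DMSO1 minus DMSO after joint quantile normalization, over single-gene probe sets that reached the floor. It is the SD of those differences divided by the square root of 2, so it includes any difference between the 2 sets of arrays. The other DMSO array gave 15 of the 17 moves and the mean of the Ahr probe sets 2. No difference past 2-fold changed sign. Arrays without replicates limit every value, and probe sets near the floor are limited by their signal over background.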

Other observations

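The solvent arrays differed more for some dim probe sets than any compound did. An Arnt probe set of alternative transcripts read 5.65 on DMSO, butein and sulfuretin but 30.8 in DMSO1 and 31.1 with resveratrol, a 5.45-fold gap between the solvent arrays, and another read 3.99 in DMSO and 15.4 in DMSO1 (3.87-fold). After joint quantile normalization the log2 gaps were 1.73 and 1.60. Over all counted genes the median gap between DMSO1 and DMSO was 0.54 as deposited, and 0.72 for the 6 counted members. Among these, Cyp1b1 (852 and 854) had the smallest as deposited, though its second probe set read 133 and 273. After joint quantile normalization its log2 gap was -0.31. Ahr (-0.15), Nqo1 (0.15) and Aldh3a1 (-0.20) then had narrower gaps, and Arnt (-0.31) and Tiparp (0.31) slightly wider ones.

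The arrays held between 12090 and 13405 distinct values for 45037 probe sets. On the first 3 arrays the dimmest Arnt probe set shared its value of 3.99 with between 1502 and 1590 probe sets, counting itself. The Nqo1 value of 234 with butein was shared by 4 probe sets, counting itself, and its values in DMSO and with sulfuretin by none. Its DMSO1 value of 102.8 was shared by 23, the brightest Arnt probe set among them. Counted the same way, the Aldh3a1 value of 32.0 with butein was shared by 84. The value of 37.4 of the brighter Ahr probe set with resveratrol was shared by 63. The step of the processing that gave such shared values is not given in the sources used here.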
